A study of Mus musculus with 12 samples.

Results

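Bdh1, Oxct1, Acat1 and Slc16a1 encode the enzymes and the transporter through which a cell takes up ketone bodies and burns them, and they were followed here in neural progenitor cells (NPCs) of the mouse subventricular zone (SVZ). The 4 genes were chosen by symbol, for their place in this pathway, out of 24108 genes listed in the count table, and all 4 had enough counts to be tested. RNA-seq was done on 12 libraries in 4 groups of 3, namely co-cultured p53-/- NPCs, p53-/- NPCs kept alone, co-cultured p53+/+ NPCs and p53+/+ NPCs kept alone. All NPCs came from the SVZ of C57BL/6 mice at P9 to P12. The p53-/- cells were p53LoxP/LoxP NPCs in which p53 was recombined in culture by an adenovirus that expresses iCre from the CMV promoter, and the p53+/+ cells are labelled wild type. An adenovirus with the CMV promoter and no iCre served as the control of such infections. Co-culture meant 48 h on a monolayer of bought primary C57BL/6J brain microvascular endothelial cells (bmvECs), from which the NPCs were then taken off by selective trypsinization, and NPCs alone were kept for 48 h on laminin. Each group held 1 library from each of 3 experiments, called 17_9, 25_9 and 1_10. The libraries were described as biological repeats, with no statement on which animals or cultures each came from, so p-values measure the spread between these libraries.

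Ketone bodies are small acids made from fat, mainly in liver mitochondria, and carried in blood to tissues such as the brain. Synthesis starts with acetyl-CoA units joined by the thiolase ACAT1 and yields acetoacetate, which BDH1 reduces to β-hydroxybutyrate. Use runs the other way. The transporter MCT1, encoded by Slc16a1, lets the acids across the plasma membrane, BDH1 oxidizes β-hydroxybutyrate back to acetoacetate, OXCT1 (also called SCOT) loads acetoacetate with CoA and commits it to breakdown, and ACAT1 splits the product into acetyl-CoA. BDH1 and ACAT1 thus serve both directions, while OXCT1 serves use only.

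The libraries held 16509710 to 22245224 counts in total, and the 4 genes had 579 to 13520 counts in a library. Trp53 fell by 2.71 on the log2 scale in p53-/- NPCs alone and by 2.01 in co-culture, and the p53 target Cdkn1a by 4.74 and 4.44. The summed level of 9 NPC and type-B cell markers, which include Nes, Sox2, Slc1a3 and Gfap, was 10118 to 28627 CPM (the count scaled to library size after TMM normalization) in every library. Of the 9, 2 rose and 2 fell in co-culture in each genotype. Of all 13745 genes tested, 2586 were called higher and 2341 lower in p53-/- co-cultures, and 2908 and 2522 in p53+/+ co-cultures. The count is near these shares and is not read as a property of the markers. Mean Gfap was 7023 CPM in p53-/- co-cultures, 292 in p53-/- NPCs alone, 13077 in p53+/+ co-cultures and 556 in p53+/+ NPCs alone. Mean Nes went the other way, with 996, 1576, 964 and 1874 CPM in the same order. Markers of endothelial cells, the other cell type of the co-culture, were present in the co-cultured libraries: Cdh5, the endothelial cadherin, had at least 18.8 CPM in p53-/- co-cultures and at most 0.0485 CPM in p53-/- NPCs alone, and 20.0 to 37.2 CPM in p53+/+ co-cultures and at most 0.0993 CPM in p53+/+ NPCs alone. Of 20 endothelial markers 19 were tested. In p53-/- co-cultures 17 of these rose and 1 fell, where 18.8% of all genes tested were called higher. In p53+/+ co-cultures 17 rose and 2 fell, where 21.2% of all genes were called higher. The summed level of the 20 was 161 to 174 CPM in p53-/- co-cultures, 96.8 to 257 CPM in p53-/- NPCs alone, 175 to 259 CPM in p53+/+ co-cultures and 99.7 to 175 CPM in p53+/+ NPCs alone. The sums overlapped between cultures in p53-/- NPCs, while in p53+/+ NPCs they reached 174.7 CPM alone and began at 175.1 CPM in co-culture. In NPCs alone most of the sum was Mfsd2a, with 135 ± 85.2 CPM in p53-/- NPCs alone and 104 ± 31.0 CPM in p53+/+ NPCs alone (SD, n = 3 each). Tie1 and Sox17 were at 0 in all p53+/+ libraries alone, and Sox17 was at 0 in all p53-/- libraries alone. Of the control genes, Gapdh passed no test, while Actb fell by 0.61 and Hprt by 1.17 on the log2 scale in p53-/- co-cultures, and by 0.50 and 1.57 in p53+/+ co-cultures. Between genotypes in co-culture, Hprt was called higher in p53-/- NPCs, by 1.02 on the log2 scale. It had 30.1 ± 8.92 CPM in p53-/- and 14.8 ± 2.39 CPM in p53+/+ co-cultures (SD, n = 3 each). Tbp had 23.8 ± 3.63 and 19.8 ± 2.03 CPM in the same order.

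The DNA just before the start of transcription is shown for the genes that moved most, Bdh1 and Slc16a1, since they rose together in p53+/+ co-cultures. RefSeq promoters on the mouse build GRCm38.p6 were at hand for 3 of the 4 genes, which leaves Acat1 named only. Each stretch runs 5′ to 3′ along the coding strand from 250 to 51 bases before an annotated start, and capitals mark CACGTG, the core of the E-box read by factors such as MYC and USF. Bdh1 has more than 1 annotated start, and the first one lies at chr16:31422047-31422246 and the other at chr16:31428503-31428702, both on the plus strand. Slc16a1 lies at chr3:104638414-104638613, plus strand.
Bdh1, first start: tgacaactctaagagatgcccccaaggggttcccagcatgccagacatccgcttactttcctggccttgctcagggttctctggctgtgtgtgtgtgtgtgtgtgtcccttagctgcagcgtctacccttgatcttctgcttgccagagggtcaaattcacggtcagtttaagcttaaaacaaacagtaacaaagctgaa
Bdh1, other start: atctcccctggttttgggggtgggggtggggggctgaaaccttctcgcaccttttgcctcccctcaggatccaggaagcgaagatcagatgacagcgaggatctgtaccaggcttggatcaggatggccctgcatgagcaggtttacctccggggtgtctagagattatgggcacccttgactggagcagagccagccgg
Slc16a1: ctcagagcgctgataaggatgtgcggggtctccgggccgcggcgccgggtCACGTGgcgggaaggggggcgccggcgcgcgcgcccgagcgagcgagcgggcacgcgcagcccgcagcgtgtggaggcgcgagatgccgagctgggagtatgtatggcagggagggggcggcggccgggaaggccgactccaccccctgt
The promoters differed in base composition. The Slc16a1 stretch had 76% G and C and 30 CpG dinucleotides, more CpG than 97.9% of 32851 RefSeq promoter stretches of the same length. The Bdh1 stretches had 50% and 59% G and C with 3 and 5 CpG, and that of Oxct1 (chr15:4026178-4026377) had 48% with 3 CpG, against a median of 51.5% G and C over all promoters. CACGTG stood in the Slc16a1 stretch once, 200 bases before the start, and in 4.34% of all promoters. AGGTCA, the hexamer bound by nuclear receptors of the PPAR and RXR kind, was searched on both strands, was found in none of the 4 stretches and stood in 11.4% of all promoters. The p53 half-site consensus was likewise found in none of the 4 and in 5.82% of all. A match is a description of the letters, and its use was not tested.

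Set side by side per kilobase of exon, Oxct1 was the most abundant of the 4 mRNAs in every group. In p53-/- co-cultures Oxct1 had 182 ± 16.1 CPM per kb, Acat1 64.5 ± 6.65, Bdh1 37.7 ± 2.37 and Slc16a1 36.6 ± 3.94 (SD, n = 3), with Bdh1 and Slc16a1 within each other's spread. In p53-/- NPCs alone the order was Oxct1 with 145 ± 18.9, Acat1 with 66.1 ± 7.74, Slc16a1 with 29.5 ± 4.57 and Bdh1 with 17.7 ± 2.02 CPM per kb, each apart from the next by more than the SDs. In p53+/+ co-cultures Oxct1 had 172 ± 14.5 CPM per kb, and Slc16a1 with 57.5 ± 6.60, Bdh1 with 53.3 ± 6.26 and Acat1 with 51.2 ± 3.19 could not be ranked against each other. In p53+/+ NPCs alone Oxct1 had 143 ± 19.1, Acat1 55.3 ± 3.92, Slc16a1 30.0 ± 2.38 and Bdh1 13.7 ± 3.90 CPM per kb. Oxct1 thus stood first in all 4 groups, and Bdh1 was last in both groups of NPCs alone. Exon lengths came from GENCODE M21 and not from the annotation used for counting, so these ratios between genes are approximate.

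**Figure D1:**
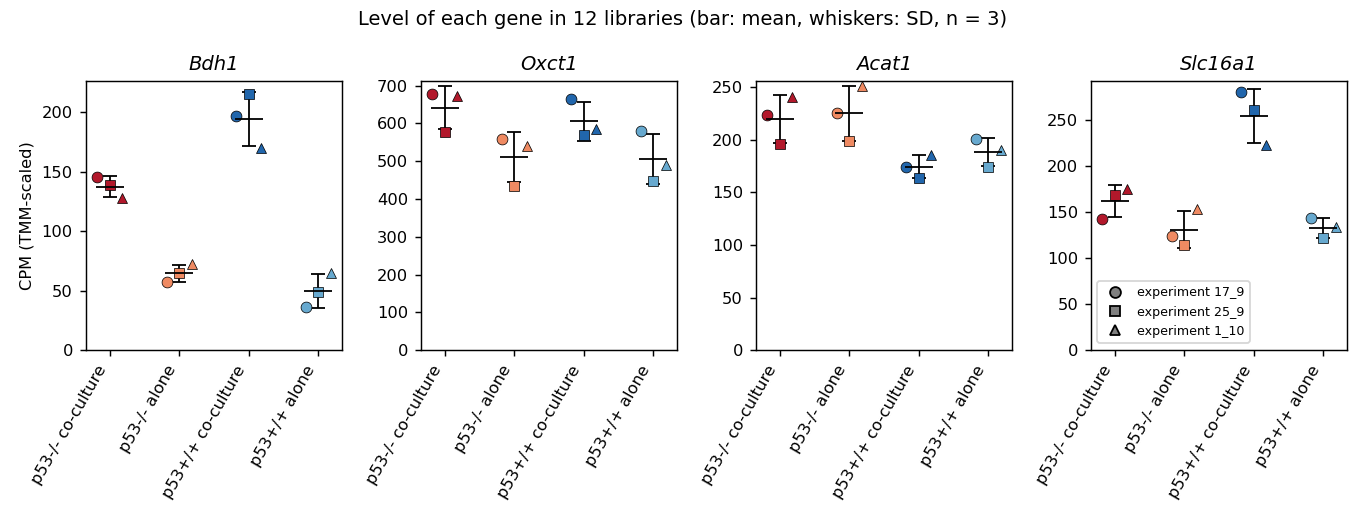
CPM of Bdh1, Oxct1, Acat1 and Slc16a1 (y axis, 1 panel a gene, each from 0) in the 12 libraries, with a symbol for each experiment and bars for the mean ± SD of 3 libraries. Bdh1 is between 128 and 145 CPM in p53-/- co-cultures and between 170 and 216 CPM in p53+/+ co-cultures, above all libraries of NPCs alone, and Slc16a1 stands out in p53+/+ co-cultures with 223 to 280 CPM.

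The first question was how ketone body genes respond when NPCs sit on endothelial cells, the setting that models their vascular niche. Bdh1, which interconverts both ketone bodies, had 145, 139 and 128 CPM in p53-/- co-cultures of experiments 17_9, 25_9 and 1_10, against 57.4, 64.6 and 72.1 CPM in p53-/- NPCs alone. In p53+/+ co-cultures it had 197, 216 and 170 CPM, against 36.2, 49.3 and 64.6 CPM in p53+/+ NPCs alone. Every co-cultured library was above every library of NPCs alone, in both genotypes. Bdh1 rose by 1.09 ± 0.18 on the log2 scale in p53-/- NPCs (SE, 2.13-fold, edgeR quasi-likelihood test, adjusted p = 0.000723) and by 1.96 ± 0.18 in p53+/+ NPCs (3.88-fold, adjusted p = 7.90e-06). The adjusted p here and below is that of edgeR with Benjamini-Hochberg adjustment over all 13745 genes tested, and a gene is said to rise or fall where it is under 0.05. The rise was present in all 3 experiments and was steepest in 17_9, where the ratio of co-culture to alone was 2.53 in p53-/- NPCs and 5.45 in p53+/+ NPCs, against 1.78 and 2.64 in 1_10. Endothelial markers rose in the same libraries, with the values given above, and their part in the result was not tested. In bulk libraries such as these, fewer cells of a type and less RNA per cell cannot be told apart. The Bdh1 locus carries the antisense gene Gm15743, and whether strand was used in counting is not given in the sources used here, so reads of the pair cannot be told apart.

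Slc16a1, the gate for entry of ketone bodies, lactate and pyruvate, had 142, 169 and 175 CPM in p53-/- co-cultures, against 124, 114 and 153 CPM in p53-/- NPCs alone. It had 280, 260 and 223 CPM in p53+/+ co-cultures, against 143, 122 and 133 CPM in p53+/+ NPCs alone. The p53+/+ groups were far apart, while the p53-/- groups overlapped through the 1_10 library of NPCs alone. Slc16a1 rose by 0.94 ± 0.14 on the log2 scale in p53+/+ co-cultures (SE, 1.92-fold, edgeR adjusted p = 0.000253). In p53-/- co-cultures the log2 fold change of 0.31 ± 0.14 missed the threshold (edgeR adjusted p = 0.0969, 95% interval 0.01 to 0.61), and it passed without the p53-/- library alone of 1_10 (0.43, edgeR adjusted p = 0.0360). Its partner Bsg (basigin), the chaperone that carries MCT1 to the membrane, had 332, 314 and 291 CPM in p53-/- co-cultures, against 357, 276 and 266 CPM in p53-/- NPCs alone. In p53+/+ co-cultures Bsg had 379, 399 and 322 CPM, against 337, 315 and 281 CPM in p53+/+ NPCs alone. Bsg passed the test in neither genotype (log2 fold change 0.06 ± 0.14, edgeR adjusted p = 0.771 in p53-/-, and 0.24 ± 0.14, adjusted p = 0.182 in p53+/+). Endothelial cells of the brain are known to hold MCT1. The part of endothelial RNA in the rise of Slc16a1 was not tested either.

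Oxct1, the enzyme that commits acetoacetate to breakdown, had 677, 576 and 672 CPM in p53-/- co-cultures, against 559, 435 and 541 CPM in p53-/- NPCs alone. It had 664, 568 and 585 CPM in p53+/+ co-cultures, against 579, 448 and 489 CPM in p53+/+ NPCs alone. Levels were thus high in every library, and only the p53-/- groups did not overlap. The log2 fold change was 0.33 ± 0.14 in p53-/- NPCs (SE, edgeR adjusted p = 0.0747) and 0.26 ± 0.14 in p53+/+ NPCs (adjusted p = 0.143). Neither passed. With the experiment number as a replicate block, Oxct1 passed in both, by 0.33 ± 0.09 in p53-/- NPCs (edgeR adjusted p = 0.0108) and by 0.27 ± 0.09 in p53+/+ NPCs (adjusted p = 0.0302). The ratio within an experiment was 1.21, 1.33 and 1.24 in p53-/- NPCs and 1.15, 1.27 and 1.196 in p53+/+ NPCs. The antisense genes BC037032 and Gm15632 overlap the Oxct1 locus, with the same limit on strand.

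Acat1, the mitochondrial thiolase of the last step, had 223, 195 and 240 CPM in p53-/- co-cultures, against 225, 198 and 251 CPM in p53-/- NPCs alone. It had 174, 164 and 185 CPM in p53+/+ co-cultures, against 201, 174 and 190 CPM in p53+/+ NPCs alone. The cultures overlapped in both genotypes. The log2 fold change was -0.03 ± 0.12 in p53-/- NPCs (SE, edgeR adjusted p = 0.850) with a 95% interval of -0.29 to 0.23, and -0.11 ± 0.12 in p53+/+ NPCs (adjusted p = 0.483) with an interval of -0.37 to 0.15. A rise of the size seen for Bdh1 lies outside both intervals.

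Co-culture therefore raised 1 of the 4 genes in p53-/- NPCs (Bdh1), where 35.8% of all genes tested were called and 18.8% were called higher, and 2 of the 4 in p53+/+ NPCs (Bdh1 and Slc16a1), where 39.5% of all genes were called and 21.2% were called higher. None of the 4 fell. With the replicate block, Bdh1 and Oxct1 were called in p53-/- NPCs, where 47.5% of all genes were called in either direction, and Bdh1, Oxct1 and Slc16a1 in p53+/+ NPCs, where 50.4% were. A count of 1 of 4 is near the background, and 2 or 3 of 4 is too small a count to read as a property of the 4 genes. Groups without overlap were found for 2 of the 4 genes in p53-/- NPCs (44.9% of all genes, in either direction) and for 2 in p53+/+ NPCs (53.7% of all genes).

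**Figure D2:**
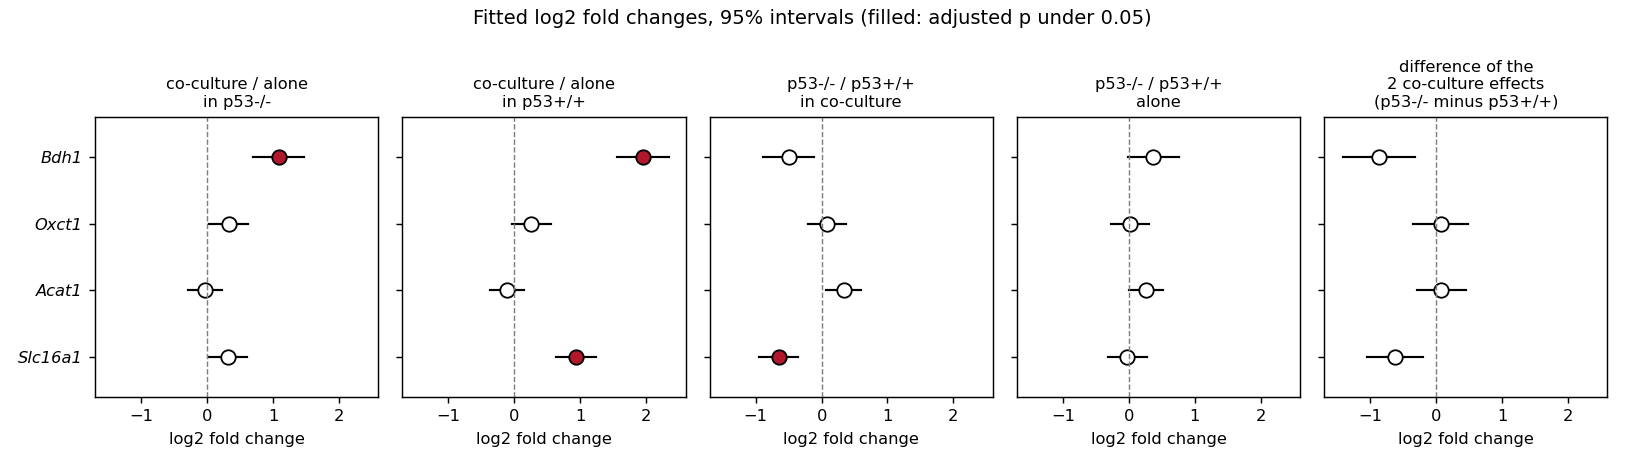
Fitted log2 fold change of the 4 genes (x axis) with its 95% interval, in 1 panel for each comparison, with filled points where the edgeR adjusted p was under 0.05. Bdh1 is filled in both co-culture panels, and Slc16a1 is filled to the right of 0 for co-culture in p53+/+ NPCs and to the left of 0 for p53-/- against p53+/+ in co-culture.

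The other genes of ketone metabolism were taken from a list of 23 (synthesis, use, transport, receptors and regulators, the 4 genes included), of which 22 had a count and 17 were tested. In p53-/- co-cultures 5 rose and 1 fell, where 35.8% of all genes were called and 18.8% were called higher, with a median log2 fold change of 0.31, against -0.01 over all genes. In p53+/+ co-cultures 5 rose and none fell, where 39.5% of all genes were called and 21.2% were called higher, with a median of 0.29, against 0.00 over all genes. With the replicate block 7 rose and 2 fell in p53-/- NPCs, where 24.3% of all genes were called higher and 23.2% lower, and 7 rose and 2 fell in p53+/+ NPCs, where 26.2% of all genes were called higher and 24.1% lower.

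Among the genes of synthesis, Hmgcll1, whose product acts outside mitochondria, rose by 0.93 ± 0.22 on the log2 scale in p53+/+ co-cultures (SE, edgeR adjusted p = 0.00518) and had 0.43 ± 0.23 in p53-/- co-cultures (adjusted p = 0.160). Bdh2, a dehydrogenase of the cytosol, rose by 1.49 ± 0.43 in p53-/- co-cultures (adjusted p = 0.0166) and had 1.06 ± 0.43 in p53+/+ co-cultures (adjusted p = 0.0641, 0.0171 with the replicate block), at only 0.911 to 7.26 CPM in any library. Of the 4 genes listed under synthesis, which include Bdh1 and Acat1, none fell. In p53-/- co-cultures 2 rose (Bdh1 and Bdh2), where 18.8% of all genes were called higher. In p53+/+ co-cultures 2 rose (Bdh1 and Hmgcll1), where 21.2% of all genes were called higher. A count of 2 of 4 is too small to read as a property of synthesis.

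Among the genes of use, Acat2, the thiolase of the cytosol that supplies sterol synthesis, went the other way. It had 54.6, 87.2 and 117 CPM in p53-/- co-cultures, against 163, 219 and 320 CPM in p53-/- NPCs alone, and fell by 1.44 ± 0.30 on the log2 scale (SE, edgeR adjusted p = 0.00322). In p53+/+ NPCs its log2 fold change was -0.79 ± 0.30 (edgeR adjusted p = 0.0531, 0.00223 with the replicate block). Acat3 is a near-identical copy of Acat2 and rose by 2.71 ± 0.24 in p53-/- co-cultures (adjusted p = 7.03e-06) and by 3.59 ± 0.24 in p53+/+ co-cultures (adjusted p = 5.84e-07). It was named after its values were seen. Reads shared by the copies could be split between them, so both values are uncertain. Oxct2a and Oxct2b, known from testis, had a single count in at most 2 of the 12 libraries each.

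Of the other transporters, Slc16a6, which carries ketone bodies out of liver cells in zebrafish, rose by 0.61 ± 0.20 on the log2 scale in p53-/- co-cultures (SE, edgeR adjusted p = 0.0313) and had 0.39 ± 0.20 in p53+/+ co-cultures (adjusted p = 0.140). The ketone receptors were close to undetected: Hcar2 had a count in 1 library and Ffar3 in none. Among the regulators, the nuclear receptor gene Ppara rose by 1.07 ± 0.30 in p53-/- co-cultures (adjusted p = 0.0143) and by 0.79 ± 0.29 in p53+/+ co-cultures (adjusted p = 0.0466). Its coactivator gene Ppargc1a rose by 0.90 ± 0.18 in p53-/- co-cultures (adjusted p = 0.00225) and had 0.29 ± 0.18 in p53+/+ co-cultures (adjusted p = 0.211). Sirt3, which encodes a deacetylase of mitochondria, rose by 0.86 ± 0.22 in p53+/+ co-cultures (adjusted p = 0.00844) and had 0.53 ± 0.22 in p53-/- co-cultures (adjusted p = 0.0788, 0.0134 with the replicate block).

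**Figure D3:**
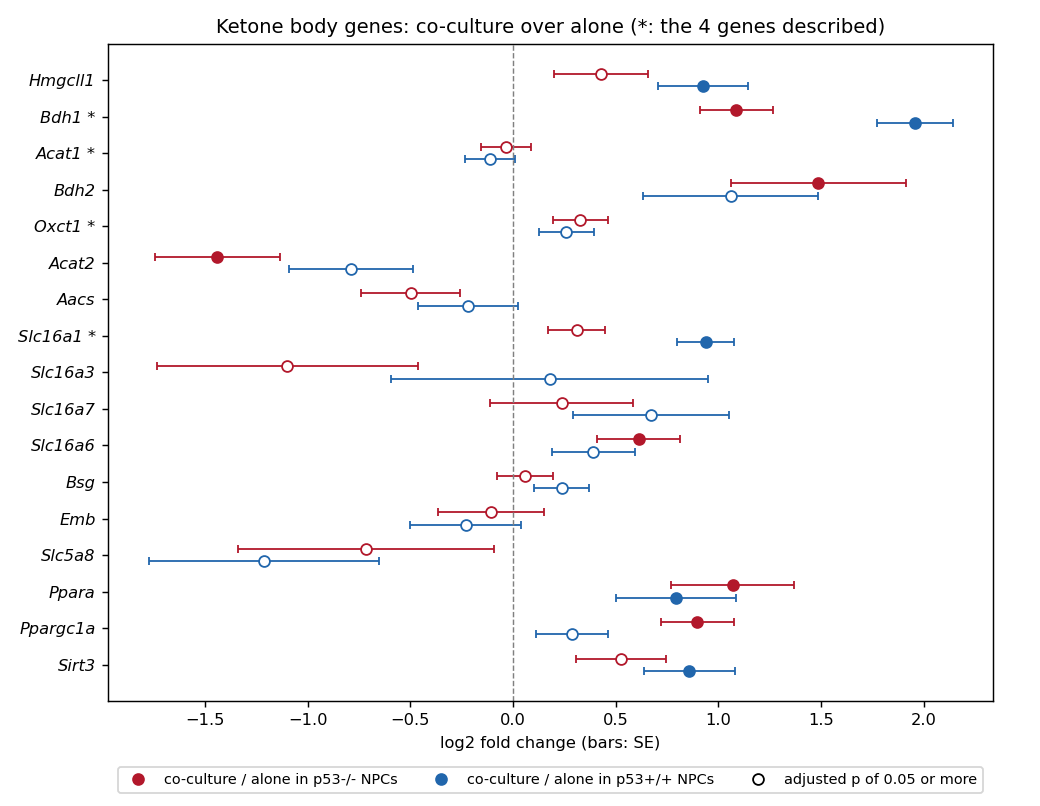
Log2 fold change of co-culture over alone (x axis, bars are SE) for the 17 tested genes of ketone metabolism, in p53-/- NPCs (red, upper of each pair) and p53+/+ NPCs (blue, lower), filled where the edgeR adjusted p was under 0.05 and starred for the 4 genes described. Bdh1 is filled to the right of 0 in both genotypes, at 1.09 in p53-/- NPCs and 1.96 in p53+/+ NPCs, and Acat2 in p53-/- NPCs is the filled point to the left of 0.

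Leucine and isoleucine are among the amino acids whose breakdown feeds acetyl-CoA, and that of leucine also gives acetoacetate. The 13 genes listed for their breakdown were all tested. In p53-/- co-cultures 7 rose and 1 fell, where 18.8% of all genes were called higher, with a median log2 fold change of 0.55, against -0.01 over all genes. In p53+/+ co-cultures 7 rose and none fell, where 21.2% of all genes were called higher, with a median of 0.59, against 0.00 over all genes. With the replicate block 7 rose and 1 fell in p53-/- co-cultures, where 24.3% of all genes were called higher and 23.2% lower. In p53+/+ co-cultures 8 rose and 0 fell with the block, where 26.2% of all genes were called higher and 24.1% lower. Dbt, a subunit of the branched-chain ketoacid dehydrogenase, rose by 0.55 ± 0.12 in p53-/- co-cultures (SE, edgeR adjusted p = 0.00431) and by 0.64 ± 0.12 in p53+/+ co-cultures (adjusted p = 0.00146). Ivd, which oxidizes the leucine branch, rose by 0.69 ± 0.14 (adjusted p = 0.00308) in p53-/- co-cultures and by 0.64 ± 0.14 (adjusted p = 0.00390) in p53+/+ co-cultures. Mccc1, a subunit of the carboxylase that follows, rose by 0.58 ± 0.12 (adjusted p = 0.00335) and 0.59 ± 0.12 (adjusted p = 0.00242), in the same order of genotypes. Auh, a hydratase of the leucine branch, rose by 0.56 ± 0.19 (adjusted p = 0.0320) and 0.74 ± 0.19 (adjusted p = 0.00739). The gene that fell in p53-/- co-cultures was Hsd17b10, of the isoleucine branch, by 0.40 ± 0.13 (adjusted p = 0.0305), named after its value was seen.

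The second question was what the loss of p53 does to these genes. In NPCs alone none of the 4 genes passed the test in edgeR, with or without the replicate block, or in DESeq2, none had an unadjusted p under 0.05, and 6.29% of all genes were called. Bdh1 had 57.4 to 72.1 CPM in p53-/- NPCs alone and 36.2 to 64.6 CPM in p53+/+ NPCs alone (log2 fold change 0.37 ± 0.18 (SE), edgeR adjusted p = 0.230). Acat1 had 198 to 251 CPM in p53-/- NPCs alone and 174 to 201 CPM in p53+/+ NPCs alone (0.26 ± 0.12, adjusted p = 0.219). For Oxct1 the log2 fold change was 0.02 ± 0.14 (adjusted p = 0.955) with a 95% interval of -0.28 to 0.31, and for Slc16a1 it was -0.02 ± 0.14 (adjusted p = 0.938) with an interval of -0.32 to 0.28. All 4 genes overlapped between the genotypes, while 27.3% of all genes did not.

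In co-culture Slc16a1 was lower in p53-/- NPCs. It had 142, 169 and 175 CPM in p53-/- co-cultures, against 280, 260 and 223 CPM in p53+/+ co-cultures, and no library of the 2 groups overlapped. It fell by 0.65 ± 0.14 on the log2 scale (SE, 0.637-fold, edgeR adjusted p = 0.0137), where 4.93% of all genes were called lower. The ratio of p53-/- to p53+/+ co-culture was 0.508 in experiment 17_9, 0.648 in 25_9 and 0.787 in 1_10. The summed level of the endothelial markers was lower in p53-/- co-culture in each experiment. It was 174 CPM in the p53-/- co-culture and 259 CPM in the p53+/+ co-culture of 17_9, 169 and 230 CPM in 25_9, and 161 and 175 CPM in 1_10. The largest term of this sum was Mfsd2a, with 42.9 ± 7.68 CPM in p53-/- co-cultures and 53.5 ± 5.44 CPM in p53+/+ co-cultures (SD, n = 3 each). Since Mfsd2a was higher in NPCs alone, the sum is not a measure of endothelial RNA only. Of the 20 markers, 19 were lower in the p53-/- library in 17_9, 18 in 25_9 and 7 in 1_10. Cdh5 had ratios of 0.672, 0.664 and 1.05 in these experiments, while Flt1, a VEGF receptor, had 26.0, 32.2 and 25.9 CPM in p53-/- co-cultures, against 45.1, 40.0 and 44.4 CPM in p53+/+ co-cultures. Flt1 was also present in NPCs alone, with 9.37 ± 3.68 CPM in p53-/- and 9.86 ± 1.51 CPM in p53+/+ NPCs (SD, n = 3 each). Vwf was slightly higher in p53-/- co-cultures, with 4.16, 4.37 and 3.63 CPM, against 4.14, 4.23 and 3.58 CPM in p53+/+ co-cultures. None of the 19 endothelial markers tested passed in edgeR, where 3.24% of all genes were called higher and 4.93% lower. With the replicate block 2 fell and 0 rose, where 20.9% of all genes were called in either direction. The 2 were Flt1, by 0.64 ± 0.19 (SE, edgeR adjusted p = 0.0348), and Ocln, a tight junction gene, by 1.28 ± 0.28 (adjusted p = 0.00733). The part of endothelial RNA in the lower level of Slc16a1 was not tested. The call for Slc16a1 was lost without the p53+/+ co-culture of 17_9 (-0.60, edgeR adjusted p = 0.0626), without all libraries of 17_9 (-0.50, adjusted p = 0.112) and without those of 25_9 (-0.66, adjusted p = 0.264), all with the same direction.

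Bdh1 had 145, 139 and 128 CPM in p53-/- co-cultures, against 197, 216 and 170 CPM in p53+/+ co-cultures, with no overlap. The log2 fold change of -0.50 ± 0.18 missed the threshold (SE, edgeR adjusted p = 0.0993) and passed just under it with the replicate block (-0.50 ± 0.16, adjusted p = 0.0496). The ratio was 0.736, 0.644 and 0.752 in experiments 17_9, 25_9 and 1_10. Acat1 went the other way, with 223, 195 and 240 CPM in p53-/- co-cultures, against 174, 164 and 185 CPM in p53+/+ co-cultures. Its groups did not overlap, its ratio was 1.29, 1.19 and 1.30 in the 3 experiments, and its log2 fold change of 0.33 ± 0.12 (edgeR adjusted p = 0.107) passed with the replicate block (0.33 ± 0.09, adjusted p = 0.0201). Oxct1 overlapped between the genotypes, with a log2 fold change of 0.08 ± 0.14 (edgeR adjusted p = 0.737) and a 95% interval of -0.21 to 0.38. With the replicate block 3 of the 4 genes were called in co-culture, where 20.9% of all genes were called. Without overlap were 3 of the 4 genes, as were 31.3% of all genes.

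**Figure D4:**
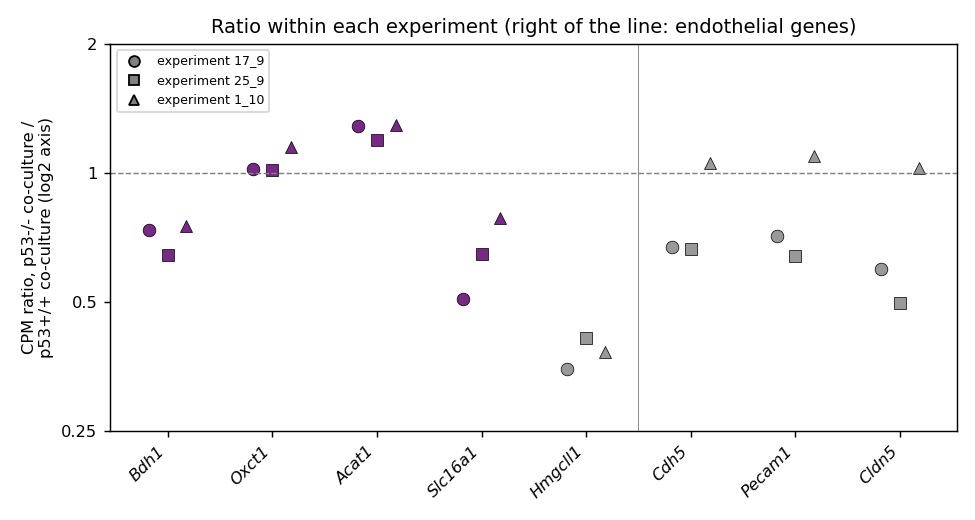
Ratio of the CPM in p53-/- co-culture to that in p53+/+ co-culture (y axis, log2 scale) within each of the 3 experiments, for the 4 genes (purple), Hmgcll1 (grey) and, right of the line, 3 endothelial genes. Slc16a1 lies between 0.508 and 0.787, Acat1 between 1.19 and 1.30, Hmgcll1 between 0.348 and 0.411, and Cdh5 is at 0.672, 0.664 and 1.05 in experiments 17_9, 25_9 and 1_10.

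Of the 17 tested genes of ketone metabolism, 1 rose and 2 fell with p53 loss in NPCs alone, where 2.02% of all genes were called higher and 4.27% lower, and the median log2 fold change was 0.02, against 0.05 over all genes. In co-culture none rose and 2 fell, where 3.24% of all genes were called higher and 4.93% lower, with a median of 0.08, against 0.02 over all genes. With the replicate block 3 rose and 3 fell in co-culture, where 1373 of all 13745 genes were called higher and 1499 lower. Hmgcll1 fell in both cultures. It had 4.46, 5.22 and 4.93 CPM in p53-/- co-cultures, against 12.8, 12.7 and 12.9 CPM in p53+/+ co-cultures, and fell by 1.39 ± 0.22 on the log2 scale (SE, edgeR adjusted p = 0.00330). In p53-/- NPCs alone it had 3.34, 2.50 and 5.05 CPM, against 7.499, 5.96 and 6.76 CPM in p53+/+ NPCs alone, and fell by 0.90 ± 0.23 (adjusted p = 0.0354). In NPCs alone Ppargc1a also fell, by 0.71 ± 0.18 (edgeR adjusted p = 0.0333), with 42.4, 49.5 and 57.9 CPM in p53-/- NPCs alone, against 99.2, 70.3 and 75.3 CPM in p53+/+ NPCs alone, and Acat2 rose, by 1.21 ± 0.30 (adjusted p = 0.0320). Of the 13 genes of leucine and isoleucine breakdown, 1 rose and 1 fell in p53-/- NPCs alone, and 1 rose and none fell in p53-/- co-cultures. The gene that rose in both was Bcat1, the cytosolic transaminase of the first step, by 1.32 ± 0.27 alone (edgeR adjusted p = 0.0125) and by 1.02 ± 0.27 in co-culture (adjusted p = 0.0338), and the gene that fell was Acadsb, by 0.70 ± 0.18 (adjusted p = 0.0413), both named after their values were seen. With the replicate block 3 of the 13 rose and 1 fell alone, where 996 of all 13745 genes were called higher and 1282 lower. In co-culture 1 of the 13 rose and 1 fell with the block, where 1373 of all 13745 genes were called higher and 1499 lower.

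**Figure D5:**
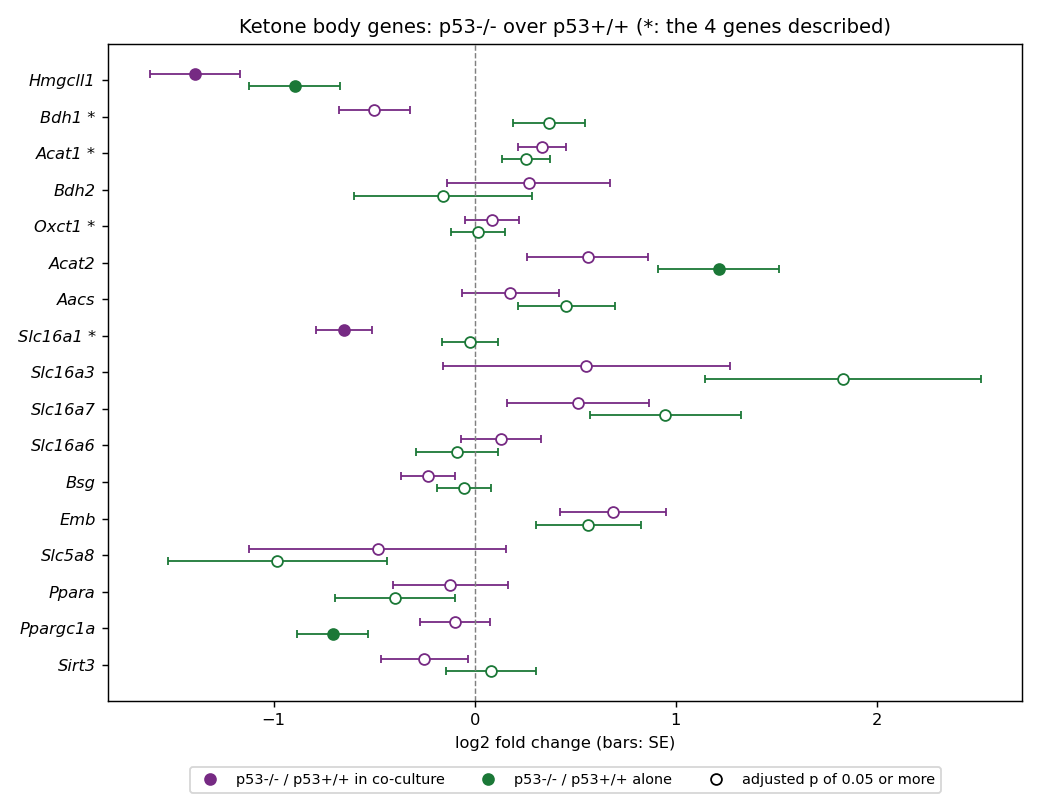
Log2 fold change of p53-/- over p53+/+ (x axis, bars are SE) for the 17 tested genes of ketone metabolism, in co-culture (purple, upper of each pair) and alone (green, lower), filled where the edgeR adjusted p was under 0.05 and starred for the 4 genes described. Hmgcll1 is filled to the left of 0 in both cultures, Slc16a1 in co-culture and Ppargc1a alone, and Acat2 alone is filled to the right.

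The third question was whether the response to co-culture differed between the genotypes, tested as the log2 effect of co-culture in p53-/- NPCs less that in p53+/+ NPCs. For Bdh1 the difference was -0.87 ± 0.25 on the log2 scale (SE, unadjusted p = 0.00418 and adjusted p = 0.666 in edgeR), with a 95% interval of -1.41 to -0.33. For Slc16a1 it was -0.63 ± 0.20 (unadjusted p = 0.00691 and adjusted p = 0.666 in edgeR), with an interval of -1.05 to -0.20. The fitted effect of co-culture was thus smaller in p53-/- NPCs for both genes, but neither difference passed adjustment over all genes. It was 0.07 ± 0.19 for Oxct1 (edgeR adjusted p = 0.960) and 0.08 ± 0.17 for Acat1 (adjusted p = 0.942), with intervals of -0.34 to 0.48 and -0.29 to 0.45. None of the 17 genes of ketone metabolism and none of the 13 of leucine and isoleucine breakdown passed, although 3 and 1 of them had an unadjusted p under 0.05, where edgeR called 0.0364% of all genes tested and 976 of 13745 had an unadjusted p under 0.05. DESeq2 called none of the 4 genes without the replicate block, and Bdh1 with it (adjusted p = 0.0258).

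The profiles of the 4 genes over the 12 libraries were then compared as a description. Libraries share group, experiment and depth, so these values of Pearson's r for log2 CPM carry no test. Bdh1 and Slc16a1 were the pair most alike (r = 0.83), Oxct1 had r = 0.60 with Bdh1 and 0.58 with Slc16a1, and Acat1 had r = -0.26 with Bdh1, -0.43 with Slc16a1 and 0.25 with Oxct1. Of all 13745 genes, the nearest to Bdh1 were Procr (r = 0.984), Myd88 (0.984) and Slc9a3r1 (0.981). Procr encodes the endothelial protein C receptor and had 7.85 ± 1.32 CPM in p53-/- co-cultures, 0.712 ± 0.0749 in p53-/- NPCs alone, 10.9 ± 3.25 in p53+/+ co-cultures and 0.461 ± 0.303 in p53+/+ NPCs alone (SD, n = 3 each). The nearest to Slc16a1 were Rcn2 (r = 0.979), Ptplad1 (0.973) and Degs1 (0.968), and Ptplad1 had 274 ± 27.5 CPM in p53-/- co-cultures, 208 ± 21.9 in p53-/- NPCs alone, 357 ± 27.2 in p53+/+ co-cultures and 226 ± 10.9 in p53+/+ NPCs alone. Nearest to Oxct1 were Lgr4 (r = 0.948), Mfsd1 (0.943) and Gstm6 (0.935), and to Acat1 they were Cdc14a (0.953), Crnkl1 (0.935) and Cyb5r4 (0.912).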

How the data were processed

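The deposited values are raw counts per gene. The authors made stranded mRNA libraries from NPCs, used TopHat2 2.0.11 (build mm9) to align the reads and HTSeq 0.6.1 to count them, per the submitters' processing notes. Whether counting used strand, and with which annotation, is not stated in these sources, so overlapping, antisense and near-copy genes are uncertain. Of 24108 genes listed, 18810 had a count, and filterByExpr of edgeR 4.0.16 (R 4.3.3) kept 13745. TMM factors ranged from 0.961 to 1.04. One quasi-likelihood fit took in all 12 libraries with a coefficient for each of the 4 groups, p-values were adjusted by Benjamini-Hochberg over all genes in each of 5 comparisons, and 0.05 was the threshold. CPM was computed from these counts. Counting error limits genes with few counts, and 95% intervals come from the model's prior plus residual degrees of freedom.

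Every one of the 4 genes was described, and of each other list up to 4 genes with the smallest adjusted p among those called, plus Bsg. The 4 genes and the lists were chosen with earlier results of these data known, and 2 genes of the lists are not reported here. Experiment numbers pair the libraries, as the key to the study's count table says: deviations from group means correlated in all 18 same-numbered pairs (r from 0.128 to 0.618), against -0.608 to 0.241 in 36 others. Library columns were matched to groups, not to single samples, since their names carry experiment numbers and the sample labels carry repeat numbers. No pair of libraries of a group was a copy (chi-square per degree of freedom 12.6 to 59.2 in 12 pairs).

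Alternatives were DESeq2 1.42.0 with and without the experiment as replicate block, edgeR with that block, DESeq2 size factors, upper-quartile scaling, library size alone, at least 10 counts in every library, no filter on low counts, only the groups compared, a threshold of 0.01, and fits without each library or experiment. The fits were tested on simulated data. Promoter sequences are from RefSeq, build GRCm38.p6, and exon lengths from GENCODE M21, and neither build is that of the counts, so the coordinates given are those of the RefSeq promoter stretches only. The authors' own fold changes were not used.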

Additional observations from a re-analysis of the deposited data

How the results depend on the processing

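The rise of Bdh1 in both co-cultures and of Slc16a1 in p53+/+ co-cultures kept its direction and its call under all 25 alternatives, with log2 fold changes of 0.98 to 1.24, 1.77 to 2.24 and 0.86 to 1.02. Of the 4 genes, 3 were called in p53-/- co-cultures with upper-quartile scaling and with library size alone (Bdh1, Oxct1 and Slc16a1), and 2 with DESeq2, DESeq2 with the replicate block, edgeR with the replicate block and at least 10 counts in every library (Bdh1 and Oxct1). Of all 13745 genes, upper-quartile scaling called 2909 higher and 1906 lower there, library size alone 2840 and 1926, and TMM 2586 and 2341. DESeq2 called 2750 and 2608, DESeq2 with the block 3279 and 3207, and edgeR with the block 3335 and 3192. For p53 loss in co-culture 3 were called with the replicate block in edgeR and in DESeq2, 2 in the fit of only the groups compared (Bdh1 and Slc16a1) and 0 at a threshold of 0.01. For the interaction DESeq2 with the replicate block called 1 of the 4 and 2 of the 17 tested genes of ketone metabolism (Acat2 and Bdh1). Of those 17, the replicate block gave 9 calls in edgeR and 8 in DESeq2 for co-culture in p53+/+ NPCs, and 6 in edgeR and 5 in DESeq2 for p53 loss in co-culture, and it changed no other call of the 4 genes than those given. Over all genes, co-culture in p53+/+ NPCs with the block gave 3604 higher and 3319 lower in edgeR, and 3496 and 3310 in DESeq2. Of the 17 genes, a threshold of 0.01 left 3 calls for co-culture in p53-/- NPCs, 0 for p53 loss alone and 1 for p53 loss in co-culture, and the fit of only the groups compared left 0 for p53 loss alone.

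Leaving out a library or an experiment gave 1 to 2 of the 4 genes called in p53-/- co-cultures and 0 to 2 for p53 loss in co-culture. For the 17 genes it gave 2 to 7 calls for co-culture in p53+/+ NPCs and 2 to 7 in p53-/- NPCs, both lowest without experiment 25_9, 0 to 3 for p53 loss alone and 0 to 3 for p53 loss in co-culture. The share of all genes called in these fits is not given here, so these counts have no background beside them. Log2 fold changes close to 0 turned sign without any call. Acat1 for co-culture in p53-/- NPCs had 0.035 with upper-quartile scaling, 0.027 with library size alone and 0.0048 with at least 10 counts, and -0.12 to 0.040 over the left-out libraries. Oxct1 for p53 loss alone had -0.024 with upper-quartile scaling, -0.0025 with library size alone, -0.00016 with at least 10 counts and -0.017 in the fit of only the groups compared, and -0.080 to 0.13 over the left-out libraries. Over those, Slc16a1 for p53 loss alone ranged from -0.19 to 0.054 and Oxct1 for the interaction from -0.044 to 0.15. For co-culture in p53-/- NPCs the median over all genes was -0.012 with TMM, 0.057 with upper-quartile scaling and 0.047 with library size alone. For p53 loss alone it was 0.054, 0.013 and 0.035 in the same order. Between these scalings the medians thus moved the same way as Acat1 and Oxct1. The cause was not tested, other than that fits without libraries hold fewer samples.

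Over all genes, p53 loss alone gave 277 higher and 587 lower in edgeR, against 996 and 1282 with the replicate block, 516 and 954 in DESeq2, and 1091 and 1472 in DESeq2 with the block. For p53 loss in co-culture the counts were 445 and 677, against 1373 and 1499, 760 and 998, and 1435 and 1593, and for the interaction 0 and 5, against 3 and 8, 9 and 16, and 205 and 70, in the same order of fits. With library size alone p53 loss in co-culture gave 624 higher and 555 lower. All tests rest on 3 libraries a group.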
